A study of Mus musculus with 4 samples.

Results

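The 79 genes described here encode proteins of the cytosolic ribosome and were measured in single non-parenchymal cells of mouse liver. They were chosen by symbol, as genes named Rpl or Rps with a number, together with Rplp0, Rplp1, Rplp2 and Rpsa, and they had to hold at least 1000 unique molecular identifiers (UMIs, the tags that mark single captured RNA molecules) over the 3 count matrices. Of 54456 gene symbols in the matrices 84 matched, and 79 passed the minimum. The symbols counted were 32 of the small subunit and 47 of the large subunit, the latter with the 3 P stalk genes. The member nearest the minimum was Rps4l with 4158 UMIs, and the nearest symbol outside it was Rpl39l with 566 UMIs.

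All libraries came from livers of C57BL/6J mice aged 30 weeks, in a series on high fat diet (HFD) and physical exercise, and were read with droplet single-cell RNA sequencing that counts the 3′ ends of transcripts. The groups are called here by the names in the labels: S, HFD_sed and HFD_EXE, with 1 library each. The labels do not expand S, sed or EXE, and they name no number of mice per library. The library labelled E was not analysed here.

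Ribosomal proteins are assembled with ribosomal RNA into the small subunit, which reads the messenger RNA, and the large subunit, which joins the amino acids. Their messenger RNAs are short and abundant, many start with a run of pyrimidines (the TOP motif) through which their translation follows nutrient and mTORC1 signals, and most of them are held in proportion to each other. Lymphocytes are known for a high fraction of such transcripts, and mature neutrophils for a low one.

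The windows around the annotated start sites are shown for genes that later stand out, because the pyrimidine run at the start is the feature this family is known for. Each line gives 15 bases before the start and 15 from it, 5′ to 3′ on the gene's strand, as RefSeq gives them for build GRCm38.p6. Capitals mark the pyrimidines that run without a break from the start, and a line without capitals begins with a purine.
Rps27, chr3:90213634-90213663, minus strand: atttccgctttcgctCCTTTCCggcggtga
Rps10, chr17:27635230-27635259, minus strand: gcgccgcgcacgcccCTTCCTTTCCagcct
Rps6, chr4:86857353-86857382, minus strand: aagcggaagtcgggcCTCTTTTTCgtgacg
Rpl27, chr11:101442230-101442259, plus strand: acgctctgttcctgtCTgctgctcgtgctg
Rps28, chr17:33824548-33824577, minus strand: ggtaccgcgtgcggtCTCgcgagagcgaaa
Rps9, chr7:3704026-3704055, plus strand: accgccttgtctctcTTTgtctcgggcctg
Rpl24, chr16:55966260-55966289, plus strand: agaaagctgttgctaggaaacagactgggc
Rpl36al, chr12:69184053-69184082, minus strand: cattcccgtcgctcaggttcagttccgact

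The RefSeq table of start sites held 58 of the 79 genes. A start that is C followed by at least 4 pyrimidines was found in 13 of the 58 (22.4%), against 3.01% of 27025 symbols in the table. The letters CTTTCC, on either strand within 30 bases of the start on each side, were found in 12 of 58 (20.7%), against 6.44% of all symbols, and they can overlap the pyrimidine run. An annotated start is 1 position, and a match of letters describes this window only.

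The 3 libraries held 10172 to 10740 kept cells, with a median of 4179.5 to 6150 UMIs per cell. Cells were grouped by the expression of genes other than the 79, and 8 classes named by their markers held at least 100 cells in every library: T cells, B cells, NK or ILC1, conventional dendritic cells (DC), monocytes, neutrophils, Kupffer cells (the resident macrophages) and liver sinusoidal endothelial cells (LSEC). They held 28244 cells, 90.7% of those kept. Transcripts of hepatocytes, which can reach any droplet as free RNA, differed between libraries within the classes. In T cells they made up 0.162% of UMIs in S, 0.0616% in HFD_sed and 0.0748% in HFD_EXE, in neutrophils 0.460%, 0.134% and 0.243%, in LSEC 0.178%, 0.0866% and 0.0977%, and in Kupffer cells 0.571%, 0.385% and 0.440%. Their part in the results below was not tested. With 1 library per group no difference between groups can be told apart from a difference between libraries, so no test is given, and intervals are exact 95% intervals that cover counting error only.

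Ribosomal protein transcripts took a very different share of the RNA in different cell classes. In T cells the 79 genes held 22.5% of all UMIs in S, 18.1% in HFD_sed and 20.5% in HFD_EXE. Neutrophils stood at the other end with 3.67%, 3.14% and 3.27%. The median T cell share of the libraries was 6.29-fold that of neutrophils, a log2 difference of 2.65.

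Between these ends conventional DC and B cells came first, then NK or ILC1 cells close to monocytes, then endothelium and macrophages. Conventional DC held 20.1%, 18.8% and 17.996% in S, HFD_sed and HFD_EXE, and B cells 18.2%, 17.4% and 19.0%. NK or ILC1 cells held 14.5%, 14.1% and 13.3%, and monocytes 13.3%, 13.5% and 13.2%. The order of T cells, conventional DC and B cells changed between libraries, whereas NK or ILC1, monocytes, LSEC, Kupffer cells and neutrophils followed in this order in all 3. LSEC held 6.46%, 6.89% and 5.61%, close to the Kupffer cells at 6.43%, 6.14% and 5.34%. The lowest class was counted on fewer molecules than the others, and even there the interval in HFD_sed ran from 3.11% to 3.17%.

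**Figure D1:**
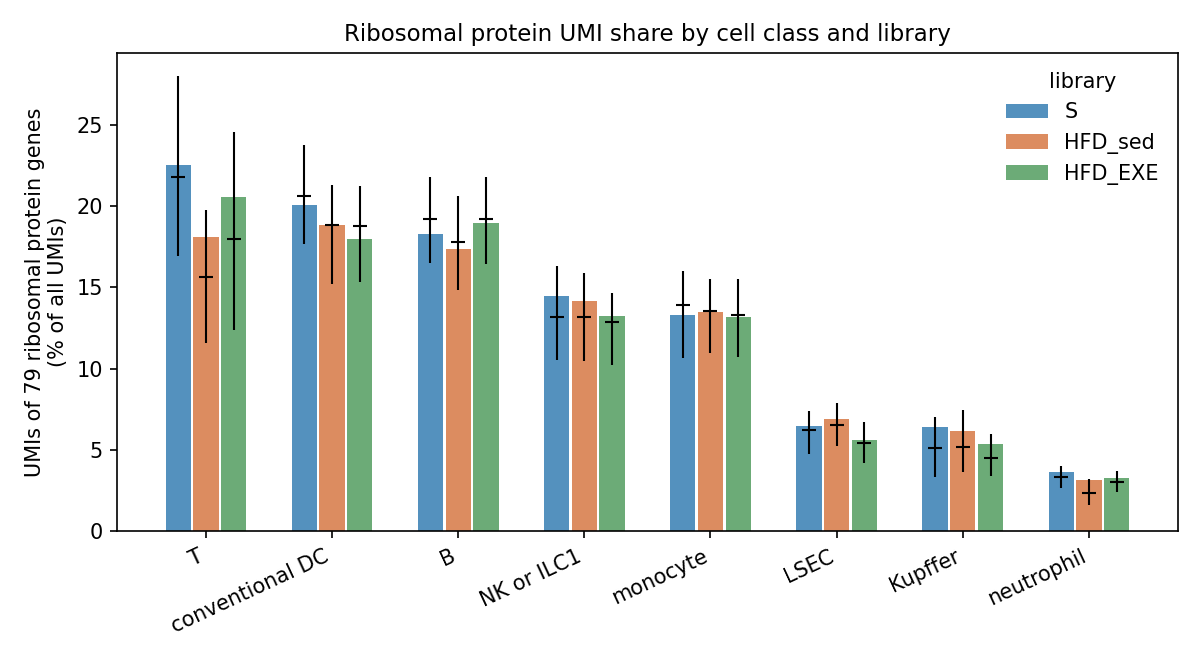
Share of all UMIs held by the 79 ribosomal protein genes (y axis, percent) in 8 cell classes (x axis), with bars for the summed share in each of the 3 libraries and black marks for the median and quartiles over cells. T cells stand at 18.1% to 22.5% and neutrophils at 3.14% to 3.67%, with no overlap between the libraries of these classes.

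Some classes were not compared because a library held fewer than 100 of their cells. Plasmacytoid DC stood at 15.6%, 15.04% and 14.5% in S, HFD_sed and HFD_EXE, close to NK or ILC1 cells. Hepatocytes carried over from the parenchyma held 4.997%, 5.60% and 5.47%, below LSEC in each library. Plasma cells, which devote their translation to antibody, held 9.94%, 7.56% and 7.43%, less than B cells in each library.

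Within T cells the share differed between clusters in every library. Cluster 16, led by Lef1, Tcf7 and Ccr7, genes known from naive and central memory T cells, held 29.3% in S, 27.8% in HFD_sed and 27.8% in HFD_EXE. Cluster 10, led by Cd28 and Ctla4, a brake on T cell activation, held 17.1%, 14.5% and 13.03%. Cluster 6, led by Ccl5 and Cd8b1, a chain of the CD8 receptor, held 24.2%, 18.2% and 24.5%, and cluster 11, led by Il2rb and Cxcr6, 19.9%, 18.1% and 16.3%. The Lef1 cluster was the highest of these 4 in each library, and the Cd28 cluster the lowest. Monocytes also split: cluster 8, led by Chil3 and Ccr2, held 15.03%, 13.6% and 13.9%, above cluster 20, led by Ace, with 11.2%, 12.01% and 10.8%.

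In several classes the share also differed with the depth of a cell. In T cells of HFD_sed the 710 cells with the fewest UMIs held 9.41% and the 710 with the most 21.5%. In LSEC of S the 1039 cells with the fewest and the 1040 with the most held 4.99% and 6.73%. The order was the other way in B cells of S, with 19.2% and 16.8%, and in conventional DC of S, with 21.1% and 19.2%. With every cell thinned to 1000 UMIs the log2 difference between the highest and the lowest class was 2.55, with B cells highest and neutrophils lowest.

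In most classes the 79 genes stood in similar proportions to each other. To remove the difference in the total, each gene was expressed as a percent of the UMIs of all 79, and this percent was compared with its median over the 8 classes of the same library. In the 7 classes other than neutrophils, 1567 of 1652 values (94.9%) lay within 1.5-fold of the median, against 158 of 234 (67.5%) in neutrophils. Small subunit genes held between 46.5% (NK or ILC1 cells of HFD_EXE) and 50.7% (neutrophils of S) of the UMIs of all 79. The genes with the largest part of the pool were Rps29 with 4.44% of the UMIs of all 79 over all kept cells, Rpl37a with 3.20% and Rps24 with 2.93%. The smallest were Rpl13a with 0.173%, Rpl36al with 0.148% and Rps4l with 0.0207%.

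Only 6 of the 79 genes differed at least 2-fold, in the same direction and in all 3 libraries, from the median class in some class. The same rule called 66.9% of 16309 genes, 63.2% higher and 23.5% lower. On this scale the summed UMIs of the 79 genes are the reference, which holds them near the median and moves all other genes with the summed share, so nothing is read from the difference to that background. The 6 were Rps9, Rps27, Rpl3 and Rpl10a in neutrophils, Rps27l in B and T cells, and Rps4l in LSEC, Kupffer and T cells.

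**Figure D2:**
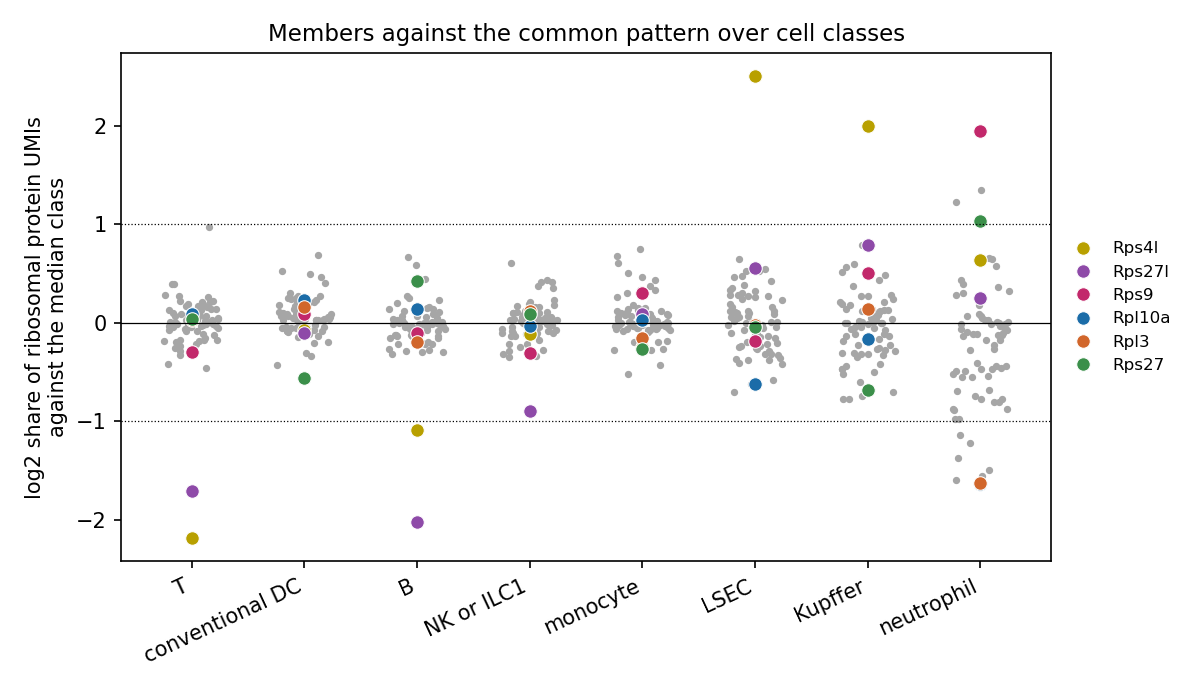
Median over 3 libraries of the log2 difference of each gene's percent of ribosomal protein UMIs from the median class (y axis), for 79 genes in 8 classes (x axis), with the 6 called genes in colour and dotted lines at 2-fold. The points lie near 0 in most classes and spread widest in neutrophils.

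Neutrophils carried a different mixture of ribosomal protein transcripts. Rps9, a protein of the small subunit that helps keep decoding accurate, held 7.29% of the UMIs of the 79 genes in S, 4.88% in HFD_sed and 7.41% in HFD_EXE, whereas the other 7 classes ranged from 1.43% to 3.01%. Rps27, a small subunit protein with a zinc finger, held 6.505%, 5.58% and 6.11% in neutrophils and 1.68% to 4.33% elsewhere. Neither range overlapped with that of the other classes.

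Rpl3 and Rpl10a went the other way. Rpl3, which lies near the site of peptide bond formation in the large subunit, held 0.219%, 0.404% and 0.253% in neutrophils of S, HFD_sed and HFD_EXE, and 0.667% to 0.927% in the other classes. Rpl10a, which forms the mobile L1 stalk, held 0.132%, 0.230% and 0.153% against 0.287% to 0.601%. Both were lower in neutrophils of each library than in any other class. With doublets kept, or in cells of low hepatocyte share, these 4 genes no longer passed 2-fold in all 3 libraries, though their direction stayed.

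Other genes passed 2-fold in neutrophils of some libraries only. Rpl37 held 5.11%, 2.86% and 4.51% of the UMIs of the 79 genes in S, HFD_sed and HFD_EXE, against 1.54% to 2.27% in the other classes. Rps27a, which is made as a fusion with ubiquitin, held 4.21%, 2.44% and 3.39% against 1.20% to 2.18%. Rpl12, at the base of the stalk, held 0.291%, 0.709% and 0.285%, and Rpsa, also known as the laminin receptor, 0.409%, 0.671% and 0.399%. In all of these the HFD_sed neutrophils lay closest to the other classes. In S 15 of the genes differed at least 2-fold from the median class in neutrophils, in HFD_sed 4 and in HFD_EXE 12. No such count per library was made over all genes, so nothing is read from the difference between these counts.

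**Figure D3:**
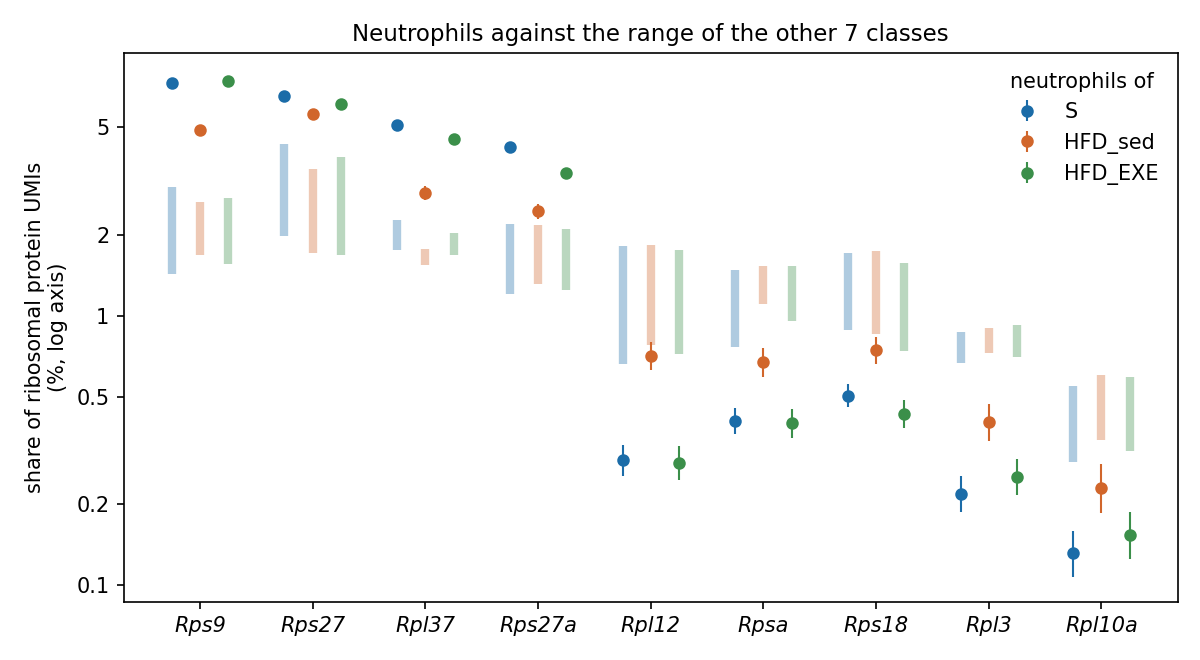
Percent of ribosomal protein UMIs (y axis, log scale) for 9 genes (x axis): points are neutrophils of each library with their counting intervals, and bars span the other 7 classes of the same library. Rps9 and Rps27 in neutrophils lie above the bars, and Rpl3 and Rpl10a below them.

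The HFD_sed neutrophils fell into clusters that differed in these genes. Cluster 7, led by S100a9, S100a8 and Retnlg, held 656 neutrophils of S, 216 of HFD_sed and 612 of HFD_EXE, and cluster 22, led by Slc7a11, Cxcl2 and Acod1, held 19, 265 and 12. Rps9 made up 6.13% of the UMIs of the 79 genes in cluster 7 of HFD_sed and 3.14% in cluster 22. For Rpl37 the values were 3.33% and 2.20%, and for Rps27a 2.85% and 1.87%. These 3 genes were nearer to the median class in cluster 22 than in cluster 7, and so were Rpl3 (0.348% and 0.482%) and Rpl12 (0.679% and 0.749%). Rps27 (5.27% and 6.02%) and Rpsa (0.701% and 0.630%) were farther from it. In cluster 7 alone HFD_sed also differed from S: Rps9 held 7.37% in S and 6.13% in HFD_sed, and Rpl12 0.294% and 0.679%.

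A ribosomal protein gene outside the symbol rule showed the pattern of Rps9 more strongly. Fau, which encodes ribosomal protein eS30 fused to a ubiquitin-like protein, stood at 11.9 UMIs per 100 UMIs of the 79 genes in neutrophils of S, 9.60 in HFD_sed and 12.6 in HFD_EXE. The median class stood at 2.62, 2.72 and 2.52, so that neutrophils were 4.56-, 3.53- and 4.99-fold higher. In CPM (UMIs scaled to the same total in each class and library), Fau reached 4381, 3013 and 4113 in neutrophils and 4675, 4507 and 4090 in T cells. Rack1, a scaffold protein on the small subunit, was 0.615-, 0.734- and 0.614-fold the median class in neutrophils.

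Members whose symbol ends in l, which are copies related to another gene, were set beside their partners. Rps27l, a paralog of Rps27 that is known as a p53 target, held 0.0468%, 0.0571% and 0.0523% of the UMIs of the 79 genes in B cells and 0.0588%, 0.0732% and 0.0543% in T cells. Kupffer cells held 0.288%, 0.413% and 0.465%, the highest of the classes in each library. Rps27 itself was low in Kupffer cells, at 1.98%, 1.71% and 1.68%, and higher in B cells, at 4.33%, 3.51% and 3.90%. The paralogs were thus ordered oppositely in these classes.

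Rps4l held 0.0370%, 0.0486% and 0.0553% in LSEC, 0.0260%, 0.0368% and 0.0303% in Kupffer cells, and 0.0014%, 0.0017% and 0.0018% in T cells. In T cells those values rest on 22, 31 and 15 UMIs. Annotation release M21 lists Rps4l as a transcribed processed pseudogene, so that reads from its relative Rps4x may be split between them, and its values are uncertain. Rps4x held 1.26%, 1.48% and 1.31% in LSEC and 1.22%, 1.31% and 1.20% in T cells, a much smaller difference. Processed copies of ribosomal protein genes are common in the genome, and reads can be split between a gene and its copies for other members too. The copy with the most UMIs was Rps23-ps1 with 4976 over the 3 matrices. Rpl36al held 0.0824% of the UMIs of the 79 genes in LSEC of S, against 0.833% for its partner Rpl36a.

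The P stalk, which binds the elongation factors, varied moderately. Rplp1 was highest in Kupffer cells, with 3.43%, 3.89% and 3.99% of the UMIs of the 79 genes, and low in neutrophils with 1.62%, 2.12% and 1.85%. Rplp0, which anchors the stalk, was highest in monocytes, with 1.30%, 1.39% and 1.33%, and LSEC held 0.629%, 0.791% and 0.756%. Rplp2 was also highest in Kupffer cells of HFD_sed and HFD_EXE, at 2.21% and 2.45%, while in S T cells held 2.21% and Kupffer cells 2.07%.

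Other genes of translation were summed in the same way. The 19 genes of the elongation and TOP list, among them Eef1a1 and Tpt1, held 2.06%, 1.87% and 1.996% of all UMIs in T cells and 0.424%, 0.462% and 0.445% in neutrophils. Eef1a1, the factor that delivers aminoacyl-tRNA, stood at 2.12, 2.25 and 2.23 UMIs per 100 UMIs of the 79 genes in T cells and at 5.35, 4.93 and 5.41 in Kupffer cells, so it was higher relative to the ribosomal protein genes where their summed share was lower. In CPM it was 4779, 4070 and 4586 in T cells and 3442, 3028 and 2890 in Kupffer cells. The ribosome biogenesis list of 26 genes held 0.2199%, 0.204% and 0.188% in T cells and 0.0533%, 0.0636% and 0.0530% in neutrophils. The initiation factors spanned only 0.338% to 0.567% over all classes and libraries, and the mitochondrial ribosomal proteins 0.158% to 0.402%.

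HFD_sed was compared with S first for the summed share of the 79 genes. It was lower in T cells, from 22.5% to 18.1%, a log2 ratio of -0.31, and 69 of 79 genes were below 0. In LSEC it was higher, from 6.46% to 6.89% (0.09), with 59 of 79 genes above 0. The median over the 8 classes was -0.07. Neutrophils stood at -0.22, conventional DC at -0.09, B cells and Kupffer cells at -0.07, NK or ILC1 at -0.03 and monocytes at 0.02. The median of all genes measured was 0.04 in T cells and 0.08 in LSEC. T cells of S were deeper (6118 UMIs per cell at the median) than those of HFD_sed (3157.5). At similar depth the gap in share was smaller: 248 T cells of S (median depth 5585) held 23.8%, and 710 of HFD_sed (5326.5) held 21.5%. Shallower T cells, at median depths of 3901 in S and 3592 in HFD_sed, held 18.5% and 17.5%. How much of the T cell difference goes with depth was not tested.

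The clusters that made up a class differed between these libraries. Of 2840 T cells of HFD_sed 1705 were in cluster 6, whereas the 995 of S were spread over clusters 11 (425 cells), 16 (269), 6 (162) and 10 (139). Within the T cell clusters the log2 ratio of HFD_sed to S was -0.41 in cluster 6, -0.24 in cluster 10, -0.13 in cluster 11 and -0.08 in cluster 16, below 0 in each. At a finer clustering, T cells led by Ccl5 formed a cluster of 37, 1226 and 24 cells of S, HFD_sed and HFD_EXE. Another such cluster held 129, 483 and 161. Cluster 6 may thus hold different mixtures of these cells in each library. Cluster 10 may do so too. The lower quartile of the share over its cells was 12.7% in S, 3.67% in HFD_sed and 2.21% in HFD_EXE. At the finer clustering a T cell cluster with a median of 1085 UMIs held 12, 259 and 57 cells of these libraries. LSEC of S lay mostly in clusters 2 and 3, and those of HFD_sed mostly in cluster 5, led by Esm1. In cluster 3, which both libraries filled, the share was 6.68% in S and 5.98% in HFD_sed (-0.16), so the direction there was opposite to that of the class. The LSEC ratio was also below 0 at a finer clustering (-0.06) and with doublets kept (-0.13), where the Esm1 cluster that held most LSEC of HFD_sed (1967 and 2088 cells) got no name and left the class. Among neutrophils, cluster 7 went from 3.69% in S to 3.85% in HFD_sed (0.06), opposite to the class, and cluster 22 held 2.50% in HFD_sed. Kupffer cluster 1 went from 6.62% to 6.20% (-0.09), and cluster 9, of low UMI counts, from 3.73% to 5.69% (0.61). The monocytes of S were mostly in cluster 20 and those of HFD_sed in cluster 8.

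Between HFD_sed and S 20 of the 79 genes differed in their percent of ribosomal protein UMIs by at least 1.5-fold in at least 1 class. The same rule called 61.9% of 16779 genes, again on a scale that centres the ribosomal protein genes and not the others. In CPM, which does not centre them, 8 of 79 were higher in LSEC and 0 lower, against 14.9% and 9.33% of all genes, and in T cells 2 were higher and 5 lower, against 9.54% and 11.2%. Of the 20, Rpl27, Rpl36al, Rps10 and Rpl24 were called in 6 to 8 classes, and most others in neutrophils only.

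Rpl27, a protein of the large subunit, was the most regular. It held 0.277% of the UMIs of the 79 genes in T cells of S, 0.587% in HFD_sed and 0.571% in HFD_EXE. In LSEC the values were 0.231%, 0.401% and 0.405%, and in monocytes 0.223%, 0.493% and 0.530%. S was the lowest library in all 8 classes, and the median log2 ratio of HFD_sed to S was 1.002, passing 1.5-fold in all 8.

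Rpl36al, Rps10 and Rpl24 were also lowest in S. In T cells Rpl36al held 0.0769% in S, 0.151% in HFD_sed and 0.135% in HFD_EXE, and it passed 1.5-fold in 7 of 8 classes, with a median log2 ratio of 0.87. Rps10, a small subunit protein near the messenger RNA entry, held 0.263%, 0.473% and 0.480%, passed in 6 classes and had a median of 0.82. Rpl24, which makes a bridge between the subunits, held 0.119%, 0.213% and 0.166%, passed in 7 classes and had a median of 0.68. Rpl27, Rpl36al, Rps10 and Rpl24 were lowest in S in every class, and the order of HFD_sed and HFD_EXE differed between these genes.

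Genes with the opposite direction included Rps29 and Rps28, both small proteins of the small subunit. Rps29 held 4.25% in T cells of S, 2.84% in HFD_sed and 3.30% in HFD_EXE, and 8.09%, 6.16% and 6.83% in Kupffer cells. Its log2 ratio was below 0 in all 8 classes (median -0.54) and past 1.5-fold in 1, the NK or ILC1 cells. Rps28 held 2.32%, 1.46% and 1.79% in T cells, with a median of -0.52 and 2 classes past 1.5-fold, T and NK or ILC1 cells. In neutrophils Rps28 was higher in HFD_sed (0.34), the exception among 8 classes.

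**Figure D4:**
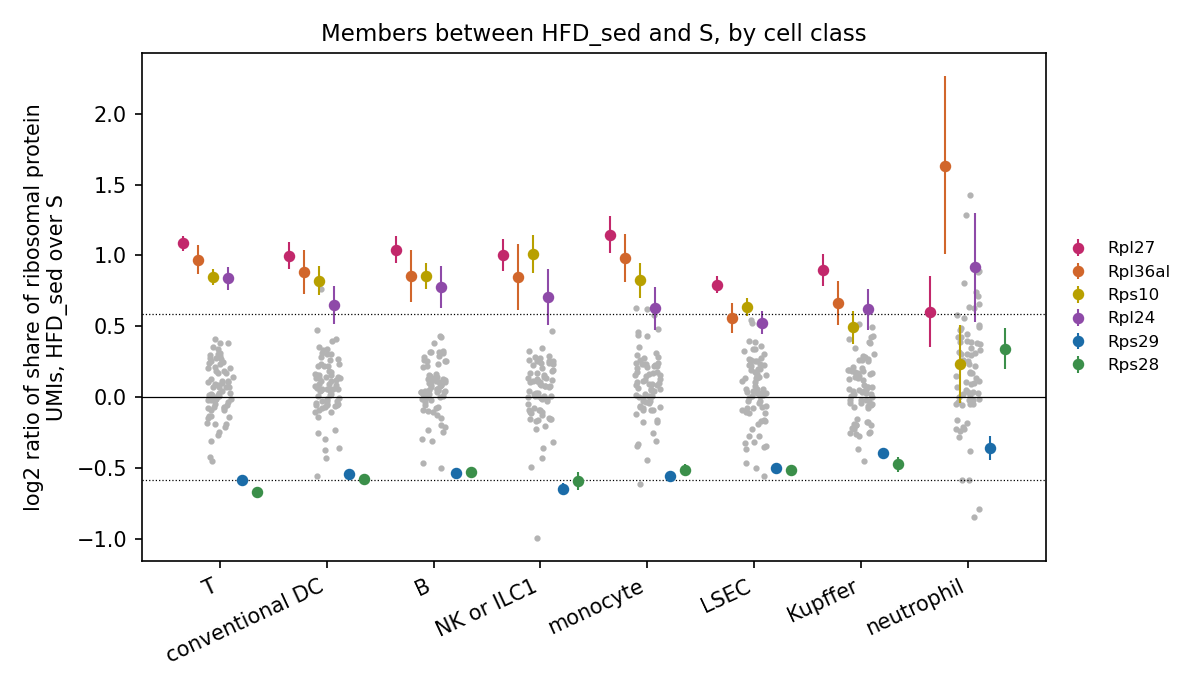
Log2 ratio of HFD_sed to S of each gene's percent of ribosomal protein UMIs (y axis) by cell class (x axis); coloured lines are Rpl27, Rpl36al, Rps10, Rpl24, Rps29 and Rps28, grey points the other genes, dotted lines 1.5-fold. Rpl27 lies above the upper line in all 8 classes, and Rps29 lies below 0 in all 8.

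Most of the other differences past 1.5-fold fell in neutrophils, where 13 genes were higher in HFD_sed and 2 lower, against a background of 20.2% of genes higher and 10.8% lower. That scale centres the ribosomal protein genes and not the others, so nothing is read from the 13 of 78 (16.7%). In CPM 6 of 78 were higher and 5 lower, against 14.1% and 17.4% of all genes. Rps19, the gene most often mutated in Diamond-Blackfan anaemia, held 0.267% in S, 0.716% in HFD_sed and 0.388% in HFD_EXE (log2 ratio of HFD_sed to S 1.42). Rpl12 was higher by 1.28, Rps20 by 0.89, and Rpl37 and Rps27a were lower, at -0.84 and -0.79. In monocytes Rpl38, named after its values were seen, was lower (-0.61) and Rps27l higher (0.63), the latter as in neutrophils (0.63). Rps6, the target of the S6 kinases, was higher past 1.5-fold in LSEC (0.64), at 0.533% in S, 0.829% in HFD_sed and 0.653% in HFD_EXE.

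For each of the 79 genes the position of the 3 libraries was compared over the classes. S was the lowest library in every class for 17 of the 79 genes and the highest for 4, among them Rpl38, Rpl6 and Rps29. HFD_sed was the lowest in every class for 2 and the highest for 8, and HFD_EXE the lowest for 2 and the highest for 1. These positions were not counted over all genes, so nothing is read from the numbers. Rpl6 is also named after its values were seen. A shift that all classes of a library share cannot be told apart from a difference in how that library was made.

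The ratio of HFD_sed to S was set against the length of the genes. Over 78 genes with a coding length, the correlation of log2 length with the median log2 ratio over classes was 0.29 (Pearson) and 0.34 (Spearman), a description over genes that are not independent. With transcript length in place of coding length it was weaker, 0.14 and 0.23. The 15 with the shortest coding sequence, up to 342 bases, had a median of -0.13 with 10 below 0, and the other 63 a median of 0.10 with 11 below 0. For HFD_EXE over HFD_sed the correlations were -0.41 and -0.35, with medians of 0.07 for the 15 and -0.06 for the 63. These comparisons share the HFD_sed library. Genes outside the family with transcripts of up to 500 bases had no common direction, with a median log2 ratio in CPM of HFD_sed to S of 0.19 in Kupffer cells, 0.13 in LSEC and -0.14 in T cells.

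**Figure D5:**
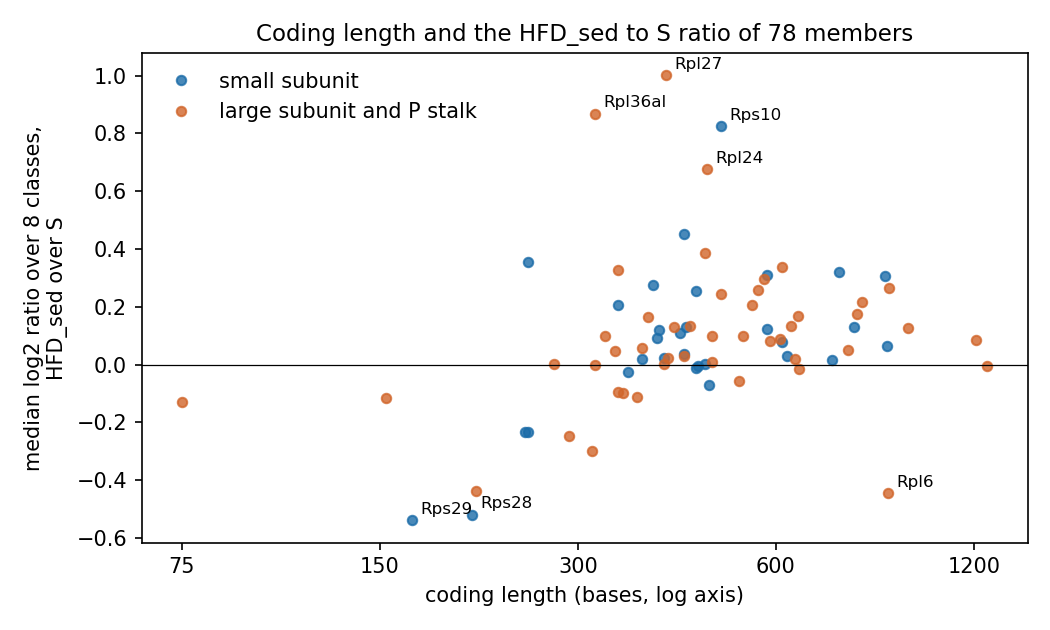
Coding length in bases (x axis, log scale) against the median log2 ratio of HFD_sed to S over 8 classes (y axis) for 78 ribosomal protein genes. Rps28 and Rps29, among the shortest, lie near -0.5, and Rpl27 lies highest at 1.002.

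Whether the start sequence goes with the direction was not tested, and the windows shown are of few genes. Rps10, with a run of 10 pyrimidines, was higher in HFD_sed than in S, and so were Rpl24 and Rpl36al, whose annotated starts are purines.

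HFD_EXE was then compared with HFD_sed, which is the library that the first comparison also used. In Kupffer cells the summed share went from 6.14% to 5.34%, a log2 ratio of -0.20, and all 79 genes were below 0. In LSEC it went from 6.89% to 5.61% (-0.30), with 78 of 79 below 0. In T cells it was higher, from 18.1% to 20.5% (0.18), with 73 of 79 above 0, and in B cells from 17.4% to 19.0% (0.13), with 71 above 0. The median over the 8 classes was -0.05. The median of all genes measured was 0.03 in Kupffer cells, -0.07 in LSEC and -0.07 in T cells. Depth again differed in T cells, with a median of 3157.5 UMIs in HFD_sed and 5136.5 in HFD_EXE. In HFD_EXE 197 T cells with a median of 4322 UMIs held 18.6%, and in HFD_sed 710 with a median of 3592 held 17.5%. Deeper T cells, with medians of 5741 in HFD_EXE and 5326.5 in HFD_sed, held 21.9% and 21.5%. At low depth the order was the other way. T cells with a median of 2310 in HFD_EXE held 9.95%, and those with a median of 2774.5 in HFD_sed held 15.7%. The part of depth was not tested.

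These ratios again crossed clusters. LSEC of HFD_EXE were mostly in cluster 0 (4093 cells), led by Plpp3 and Inhbb, of which HFD_sed held 223. Within clusters the log2 ratio was -0.10 in cluster 0, -0.02 in cluster 3 and -0.07 in cluster 5, all smaller than in the class. Kupffer cells of cluster 1, led by Cd5l and Cd163, held 6.20% in HFD_sed and 5.31% in HFD_EXE (-0.22), much as the class did. Among T cells, cluster 6 went from 18.2% to 24.5% (0.43), whereas cluster 10 and cluster 11 were lower (-0.16 and -0.15) and cluster 16 stood at 0.00. The higher share of the T class was thus found in 1 of its 4 clusters. That cluster may itself hold different mixtures of cells in HFD_sed and HFD_EXE, as described for the first comparison.

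Between HFD_EXE and HFD_sed 11 of the 79 genes differed in their percent of ribosomal protein UMIs by at least 1.5-fold, all of them in neutrophils, against 56.3% of 16372 genes in any class. In neutrophils the background was 16.3% of genes higher and 13.8% lower. The members called were 2 of 78 higher and 9 of 78 lower, again on the scale that centres them. In CPM 2 of 78 were higher and 8 lower, against 18.6% and 12.5% of all genes. Rpl12 was lower by the most, at a log2 ratio of -1.31, followed by Rpl36al (-0.92), Rps19 (-0.88) and Rps20 (-0.81). Rps18 (-0.79), Rpsa (-0.75), Rpl32 (-0.69), Rpl3 (-0.68) and Rps28 (-0.60) were also lower. Rpl37 was higher by 0.66 and Rps9 by 0.60. Without cluster 22, which drew 265 of its 296 cells from HFD_sed, and the low-UMI Kupffer cluster 9, 5 of the 11 were called: Rpl12, Rps19, Rps18, Rpsa and Rpl32.

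Genes of the translation lists were compared in CPM in LSEC and T cells. These classes held the highest and the lowest HFD_sed to S ratio of the summed share. Neutrophils, at -0.22, shifted more than LSEC, at 0.09, and their list comparisons are not described here. The HFD_sed over S backgrounds of LSEC and T cells in CPM are those given above. Of 26 ribosome biogenesis genes, 4 were higher in LSEC of HFD_sed than of S and none was lower, against 14.9% and 9.33% of all genes. Among the 4 were Dkc1 (log2 ratio 1.03) and Nip7 (0.86). In T cells none was higher and 2 were lower, Wdr12 (-0.64) and Nop2 (-0.77), against 9.54% and 11.2% of all genes. Of the 19 elongation and TOP genes 1 was called in LSEC, Hnrnpa1 (0.83), and none in T cells. The counts of both lists lay near or below the shares of all genes, so nothing is read from them.

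The list of mTORC1, MYC and TOP control was read in the same classes. It holds activators and inhibitors together, so its counts give no direction of a pathway. In LSEC 7 of its 21 genes were higher in HFD_sed than in S and 2 lower, against 14.9% and 9.33% of all genes. Its summed share in LSEC was 0.155% in S and 0.158% in HFD_sed. In T cells 0 of 20 were higher and 3 lower, against 9.54% and 11.2% of all genes. Of the immediate early and heat shock genes, 14 of 18 were higher in LSEC of HFD_sed than of S. Their summed share there was 0.368% in S, 0.879% in HFD_sed and 0.518% in HFD_EXE. In LSEC 12 of 18 were lower in HFD_EXE than in HFD_sed. In T cells 8 of these 18 were higher in HFD_sed and none lower. Of 12 cycling genes 8 were higher in LSEC of HFD_sed and 8 lower in its T cells. The part of these lists in the ribosomal protein shares was not tested. Myc, a transcription factor known to drive ribosomal genes and also an early gene, had a log2 ratio of 2.43 in LSEC and -0.66 in T cells. It stood at 4.34 CPM in LSEC of S, 23.4 in HFD_sed and 8.91 in HFD_EXE. Mycn, at 0.457, 2.63 and 0.406 CPM, had a ratio of 2.53 in LSEC on few UMIs. For HFD_EXE over HFD_sed in LSEC, where 8.5% of genes were higher and 13.2% lower, Myc stood at -1.39 and Mycn at -2.69. In T cells, with 9.22% of genes higher and 8.81% lower, Sesn1, a stress-responsive inhibitor of mTORC1, stood at 1.20 and Ddit4 at 0.74.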

How the data were processed

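Droplet counts of UMIs per gene and barcode were deposited for each library, made with Cell Ranger 6.1.2 on build GRCm39 per the submitters' processing notes. How intronic and multi-mapped reads were treated is not stated in the labels. The labels give 5000 to 6000 captured cells, and the matrices held 11280 to 11752 barcodes, of which 29 to 46 were shared between a pair of libraries. Cells with at least 500 UMIs, 300 genes and under 15% mitochondrial UMIs were kept, and 295 to 403 doublets per library were removed with Scrublet at a score of 0.219, the mean of the automatic thresholds in S and HFD_sed, since the automatic one marked 0 cells in HFD_EXE. Scanpy 1.11.5 clustered the cells on 2000 variable genes, 30 components and 15 neighbours, with the 79 genes left out, into 28 clusters. Clusters were named from fixed markers by thresholds set after the clusters were seen.

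UMIs were summed per class and library. A gene was called over classes at 2-fold in all 3 libraries, and between libraries at 1.5-fold with at least 20 UMIs and an exact interval excluding no change. Genes named are those called, up to 12 per comparison, the 3 most and 3 least abundant, those at the minimum, paralogs ending in l, the P stalk, Rpsa and Rps27a; other lists give up to 4. The members and lists were chosen with earlier results of these data known. On simulated data for HFD_sed over S in LSEC (15056 genes, 200 changed 2-fold) 99.0% were recovered and 0.963% of unchanged genes called. The simulated counts held counting error only, and the changed genes had more UMIs than the rule requires. These rates therefore do not cover differences between cells or libraries. Alternatives changed the clustering, cell filters, doublets, free RNA, depth, totals and fold.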

Additional observations from a re-analysis of the deposited data

Results flagged for a closer look

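The summed share of the 79 ribosomal protein genes moved in opposite directions in 2 cell classes in both comparisons. For HFD_sed over S the log2 ratio was 0.0915 in LSEC and -0.31 in T cells. The LSEC value was below 0, as in T cells, at a finer clustering (-0.0620), with doublets kept (-0.13) and within LSEC cluster 3 (-0.16). For HFD_EXE over HFD_sed the ratio was -0.30 in LSEC and 0.18 in T cells. The intervals of each cover counting error only, each group is 1 library, and the differences between the classes were not tested. The comparisons share the HFD_sed library, and the clusters that fill LSEC and T cells differ between the libraries, as does the depth of the T cells.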

How the results depend on the processing

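No paired analysis was possible because each group holds 1 library and no values were tested. For the median log2 ratio of the summed share over classes, HFD_sed over S was -0.07 and became -0.0825 at a finer clustering (resolution 2.0), -0.11 with doublets kept, -0.10 in cells at or below the median hepatocyte share, -0.0763 with cells thinned to 1000 UMIs, -0.0617 with the total taken without mitochondrial, haemoglobin and hepatocyte genes, and -0.0512 without clusters 9 and 22, an alternative chosen after seeing the data. HFD_EXE over HFD_sed was -0.05 and became -0.0377 with doublets kept, -0.0332 at low hepatocyte share, 0.0140 after thinning, -0.0402 with the reduced total and -0.0791 without those clusters. The spread from the highest to the lowest class was 2.65 and became 2.27, 2.68 (under 10% mitochondrial UMIs), 2.61, 2.55, 2.67 and 2.48, and its highest class was B cells with doublets kept and after thinning. Genes called over classes went from 6 to 2 with doublets kept, 3 at low hepatocyte share (5 classes left), 10 after thinning and 2 at 3-fold. Rps9, Rps27, Rpl3 and Rpl10a were the 4 lost with doublets kept and at low hepatocyte share. Between libraries the counts of 20 and 11 fell to 5 and 1 at 2-fold, and the 11 to 5 without clusters 9 and 22.

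Of 138 class ratios under an alternative 123 kept their direction. For HFD_sed over S the others were B cells 0.0061 at low hepatocyte share, Kupffer cells 0.41 with the 79 genes kept among the candidates for clustering and in its totals (none was chosen as a variable gene, so the change acts through the totals), 0.40 with doublets kept and 0.00059 after thinning, LSEC -0.0620 at the finer clustering and -0.13 with doublets kept, NK or ILC1 0.0033 with doublets kept, monocytes -0.0605 with doublets kept and -0.0485 after thinning, and neutrophils 0.0628 without clusters 9 and 22. For HFD_EXE over HFD_sed they were conventional DC 0.0425 after thinning, and neutrophils -0.00050 with the 79 genes kept in those totals, -0.0471 with doublets kept, -0.0332 at low hepatocyte share and -0.23 without clusters 9 and 22. In the Kupffer values of 0.41 and 0.40 a cluster with Cd207 among its leading genes was named Kupffer, and at the finer clustering and with doublets kept the Esm1 cluster left LSEC. The cause of the others was not tested. The 7 results for single genes between libraries kept their direction in 63 of 63 alternatives, and the 9 over classes in 81 of 81. Thinning left out 512, 579 and 607 cells of S, HFD_sed and HFD_EXE.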
